A study of Sus scrofa with 32 samples.

Results

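The 10 genes described here encode a kinase pathway that sets sodium entry into cells and its targets. They were followed in pig endometrium, the lining of the uterus, on Day 14 of pregnancy or of the oestrous cycle. They are the kinase WNK1, the kinases STK39 (SPAK) and OXSR1 (OSR1) that WNK1 activates, the sodium-potassium-chloride cotransporter SLC12A2 (NKCC1), the kinase SGK1, the ubiquitin ligase NEDD4L, the epithelial sodium channel (ENaC) subunits SCNN1A, SCNN1B and SCNN1G, and FXYD4, a small regulator of the sodium pump. The genes were matched by pig symbol and make up 10 of the 30185 genes counted. They were chosen with their differences between pregnant and cyclic gilts in each compartment, and the differences of that effect between compartments, in view. These differences are therefore given as a description. Where the number of these genes past a threshold is printed, it stands beside the share of all genes and nothing is read from it. Levels between compartments were not named by the choice and were tested, as means over cyclic and pregnant gilts. Such a mean takes in the pregnant levels, so it is not free of the differences that the choice used.

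WNK kinases sense chloride and osmotic stress and phosphorylate STK39 and OXSR1, which in turn activate SLC12A2 and let sodium, potassium and chloride into the cell. SGK1 is induced by steroid hormones and by cell shrinkage, and it restrains NEDD4L, which otherwise removes ENaC from the cell surface. ENaC takes up sodium through the apical membrane of epithelia, the sodium pump moves it out at the basal side, and in the uterus the balance of absorption and secretion sets the volume of the luminal fluid in which the conceptus lies.

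Prepuberal gilts were brought into oestrus with eCG and hCG. The pregnant gilts were inseminated with semen and the cyclic controls received the supernatant of semen without sperm. Both groups were slaughtered on Day 14 after insemination. The 4 cyclic animals are named here gilts C128, C40, C42 and C78, and the 4 pregnant animals gilts P139, P39, P41 and P43, after C for cyclic or P for pregnant and the number in their labels. Their endometrium was cut by laser microdissection into 4 compartments, which are the luminal epithelium (LE), the glandular epithelium (GE), the blood vessels (BV) and the stroma (S). The pregnant tissue came from the reddened zones where conceptuses attach, whereas cyclic tissue had no such zones. Each group had n = 4 gilts except pregnant GE with n = 3, because GE of gilt P41 was not analysed here. The 4 compartments of a gilt share that animal, and in such samples fewer cells of a type and less RNA per cell cannot be told apart.

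The 31 libraries held 2415200 to 7081600 counts, and 2 ribosomal RNA genes took 5.201 to 16.9% of them. In BV this share was 12.8 to 16.1% in cyclic and 16.4 to 16.9% in pregnant gilts, and in LE, GE and S the groups overlapped. Summed levels of 11 epithelium markers in LE were 3079 to 3593 normalised read counts (CPM) in cyclic and 2543 to 2832 CPM in pregnant gilts, and in GE 1789 to 2181 CPM over both, and none of the 11 was at 0. Smooth muscle markers in LE were also lower in pregnant gilts, at 105 to 130 against 169 to 418 CPM, and 7 leukocyte markers in GE were higher, at 64.7 to 96.5 against 18.2 to 30.7 CPM. The part of these shifts in the results below was not tested. In LE, 6 fibroblast markers summed to 4097 to 16514 CPM. In BV the epithelium markers summed to 3.69 to 55.1 CPM in cyclic and 187 to 357 CPM in pregnant gilts, and 9 of 11 were higher in every pregnant library. The 7 smooth muscle markers in BV ran the other way, at 5368 to 17277 CPM in cyclic and 814 to 6586 CPM in pregnant gilts. The library of cyclic gilt C128 stood apart in GE, where its mean leading log2 distance to the other cyclic libraries was 3.46 against 2.52 to 2.68 for these, and it was also the most distant cyclic library in LE at 3.29.

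All 10 genes passed the authors' filter on low counts in LE. In GE, BV and S 7 passed, and SCNN1B, SCNN1G and FXYD4 did not. Positions are those of Sscrofa11.1 with the NCBI annotation. SCNN1B (gene ID 100627971, chr3:22832259-22902592) and SCNN1G (100522244, chr3:22977940-23013384) lie on the same strand with 75.3 kb between them. SCNN1A (396608, chr5:64287529-64312917) and WNK1 (406235, chr5:68000792-68142533) lie on the same chromosome, 3687.9 kb apart. STK39 (100517614) is at chr15:74441019-74757851, OXSR1 (397618) at chr13:23020839-23116957, SLC12A2 (100516960) at chr2:131016430-131109307, NEDD4L (100512083) at chr1:162364053-162736515, SGK1 (100625739) at chr1:29625786-29753619 and FXYD4 (100511475) at chr14:61633355-61637733. Of the 10814 exon bases of WNK1, 1688 overlap RAD52 on the other strand. RAD52 had at most 144 counts in any library, and the strand setting of the counting is not given in the sources used here.

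The 250 bases before the annotated start are shown for the 3 genes that differed past the threshold used below in LE, and for SCNN1B, the neighbour of SCNN1G, read 5′ to 3′ on the strand of the gene. They lie at chr5:68000542-68000791 (plus strand) for WNK1, chr3:23013385-23013634 (minus strand) for SCNN1G, chr3:22902593-22902842 (minus strand) for SCNN1B and chr14:61633105-61633354 (plus strand) for FXYD4. Capitals mark matches to GGGCGG, the GC box, on either strand.
WNK1: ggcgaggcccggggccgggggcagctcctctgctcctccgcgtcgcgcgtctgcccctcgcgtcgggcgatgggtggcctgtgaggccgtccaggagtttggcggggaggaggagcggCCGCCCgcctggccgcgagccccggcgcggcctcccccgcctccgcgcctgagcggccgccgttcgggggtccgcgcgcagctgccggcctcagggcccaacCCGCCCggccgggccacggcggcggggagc
SCNN1G: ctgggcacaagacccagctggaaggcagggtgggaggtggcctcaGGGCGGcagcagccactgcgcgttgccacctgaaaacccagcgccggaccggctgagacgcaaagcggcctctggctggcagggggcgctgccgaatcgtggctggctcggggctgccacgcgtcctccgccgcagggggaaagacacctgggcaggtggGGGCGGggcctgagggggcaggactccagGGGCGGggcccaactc
SCNN1B: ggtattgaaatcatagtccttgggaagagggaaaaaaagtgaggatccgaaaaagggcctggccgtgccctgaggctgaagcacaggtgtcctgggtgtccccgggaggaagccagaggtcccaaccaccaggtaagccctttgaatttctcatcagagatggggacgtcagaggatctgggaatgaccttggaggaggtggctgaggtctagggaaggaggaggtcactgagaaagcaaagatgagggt
FXYD4: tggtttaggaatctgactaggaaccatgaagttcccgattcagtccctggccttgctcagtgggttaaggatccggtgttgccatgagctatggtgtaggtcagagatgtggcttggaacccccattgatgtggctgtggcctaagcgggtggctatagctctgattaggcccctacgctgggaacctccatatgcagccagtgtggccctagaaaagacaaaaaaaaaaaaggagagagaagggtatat
G and C made up 82.4% of the WNK1 window, more than in 97.3% of the 20653 protein-coding gene windows of this length, 72.8% of the SCNN1G window, 54.4% of the SCNN1B window and 50.4% of the FXYD4 window. The GC box occurred 2 times before WNK1 and 3 times before SCNN1G, and it was in 44.4% of all windows. The steroid receptor motif AGAACA, which 10.6% of all windows held on either strand, and TATAAA, which 10.4% held, had no match in the windows of the 10 genes. CCAAT had 1 match, before NEDD4L, and was in 32.0% of all windows. These matches describe letters and are not shown to be sites.

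In LE, WNK1 had the smallest spread within groups relative to its means, and its groups stood far apart. In cyclic LE it was 236 CPM in gilt C128, 237 in gilt C40, 209 in gilt C42 and 252 in gilt C78. In pregnant LE it was 1371 CPM in gilt P139, 1440 in gilt P39, 1374 in gilt P41 and 1498 in gilt P43. The groups did not overlap, and means ± SD were 233 ± 18.2 and 1421 ± 60.7 CPM (n = 4 and 4), so that pregnant gilts were 6.09-fold higher, and the log2 fold change was 2.62 (SE 0.16). Gene counts do not separate the full-length kinase from shorter WNK1 forms that lack the kinase domain.

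In GE, WNK1 was 220, 282, 201 and 301 CPM in cyclic gilts C128, C40, C42 and C78, and 543, 774 and 648 CPM in pregnant gilts P139, P39 and P43. Again no pregnant library came down to a cyclic one, and the log2 fold change was 1.37 (SE 0.21). In BV the 4 cyclic libraries were 319 to 484 CPM and the 4 pregnant ones 308 to 341 CPM, and in S they were 262 to 353 and 327 to 491 CPM. Both pairs of ranges overlapped, with log2 fold changes of -0.29 (SE 0.15) in BV and 0.34 (SE 0.17) in S. In cyclic gilts LE therefore held less WNK1 than any BV or S library, and in pregnant gilts LE held more than any library of another compartment.

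**Figure D1:**
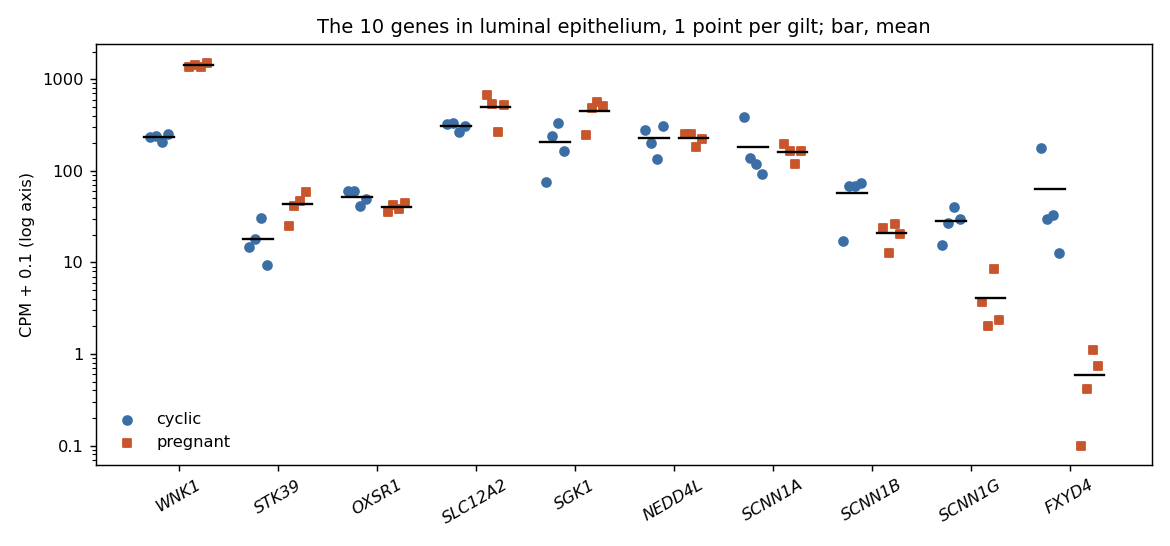
CPM + 0.1 of the 10 genes in luminal epithelium on a log axis, 1 point per gilt (4 cyclic, 4 pregnant) with a bar at the mean. WNK1 groups lie apart upwards, SCNN1G and FXYD4 groups lie apart downwards, and the other 7 pairs of groups overlap.

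STK39 and OXSR1, the related kinases that WNK1 phosphorylates, had means that differed in opposite directions in LE. STK39 in cyclic LE was 14.7, 17.9, 30.5 and 9.33 CPM in gilts C128, C40, C42 and C78, and in pregnant LE 24.9, 41.4, 46.1 and 59.2 CPM in gilts P139, P39, P41 and P43. Gilt C42 was the highest cyclic library and lay above gilt P139, so the groups overlapped, with a log2 fold change of 1.26 (SE 0.36). OXSR1 in LE ranged from 40.8 to 59.4 CPM in cyclic and from 35.5 to 44.8 CPM in pregnant gilts, and its log2 fold change was -0.37 (SE 0.16). Per kilobase of exon, the ratio of OXSR1 to STK39 in LE was 3.01 to 11.9 in cyclic and 1.71 to 3.21 in pregnant gilts.

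Outside LE, STK39 had lower means in pregnant gilts. Its log2 fold change was -0.47 (SE 0.25) in GE, -0.04 (SE 0.25) in BV and -0.77 (SE 0.31) in S, where cyclic libraries were 49.5, 51.6, 36.5 and 76.7 CPM and pregnant libraries 32.5, 27.0, 46.8 and 18.4 CPM. The S groups overlapped through cyclic gilt C42 and pregnant gilt P41. OXSR1 had the narrowest range of the 7 genes detectable in all compartments, between 35.5 and 59.4 CPM in all 31 libraries, with log2 fold changes of 0.03 (SE 0.17) in GE, -0.23 (SE 0.14) in BV and -0.16 (SE 0.15) in S. The ratio of WNK1 to OXSR1 per kilobase in LE was 1.63 to 2.11 in cyclic and 13.7 to 15.9 in pregnant gilts.

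SLC12A2, the cotransporter at the end of the kinase chain, had a higher mean in pregnant gilts in each compartment, with large scatter. In LE it was 327, 331, 266 and 306 CPM in cyclic gilts C128, C40, C42 and C78, and 667, 540, 262 and 519 CPM in pregnant gilts P139, P39, P41 and P43. Pregnant gilt P41 lay below all cyclic libraries while the other 3 lay above, and the log2 fold change was 0.71 (SE 0.27), or 0.93 without gilt P41. In BV cyclic libraries were 50.1, 63.8, 65.3 and 85.0 CPM and pregnant libraries 375, 315, 65.9 and 300 CPM, with gilt P41 again at the cyclic level and a log2 fold change of 2.01 (SE 0.44).

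In GE, SLC12A2 was 24.2 CPM in cyclic gilt C128 and 1688, 1104 and 1815 CPM in cyclic gilts C40, C42 and C78, against 1778, 3673 and 4422 CPM in pregnant gilts P139, P39 and P43. The log2 fold change of 1.49 (SE 1.01) became 1.08 without gilt C128. In S, cyclic libraries were 51.6, 68.4, 46.7 and 130 CPM and pregnant libraries 221, 84.3, 200 and 84.1 CPM, with a log2 fold change of 0.996 (SE 0.42). Gilt P41 was among the high libraries there. Pregnant BV of gilt P41, with SLC12A2 at 65.9 CPM, had an epithelium marker sum of 187 CPM, close to the 204 CPM of gilt P43, whose SLC12A2 was 300 CPM. In BV and S the 3 pregnant BV libraries and the 2 pregnant S libraries with the highest SLC12A2 also had epithelium marker sums of 204 CPM or more. With the epithelium marker sum as a covariate the log2 fold change was 1.74 (SE 0.90) in BV and 0.48 (SE 0.38) in S. In BV the marker sums of the groups did not overlap, so this fit cannot separate them from pregnancy there.

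SGK1, the steroid-induced kinase, was higher in most pregnant LE libraries. It was 75.7, 239, 336 and 166 CPM in cyclic LE of gilts C128, C40, C42 and C78, and 244, 481, 560 and 510 CPM in pregnant LE of gilts P139, P39, P41 and P43. Cyclic gilt C42 lay above pregnant gilt P139, so the groups overlapped, and the log2 fold change was 1.14 (SE 0.42). In GE the libraries were 59.0, 168, 110 and 69.7 CPM in cyclic and 58.6, 73.1 and 105 CPM in pregnant gilts, and the log2 fold change was -0.38 (SE 0.39). In BV and S the log2 fold changes were 0.23 (SE 0.45) and -0.11 (SE 0.54). Gilt C128 had the lowest cyclic SGK1 in LE, GE and BV, at 75.7, 59.0 and 22.2 CPM.

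NEDD4L, the ligase that SGK1 restrains, differed little in LE, at 275, 202, 136 and 305 CPM in cyclic and 255, 250, 182 and 223 CPM in pregnant gilts. The log2 fold change was -0.00 (SE 0.26), and its sign depended on which library was left out (-0.19 to 0.19). In GE cyclic gilt C128 stood at 1121 CPM against 256 to 323 CPM in the other 3 cyclic and 289 to 450 CPM in the pregnant libraries. The GE log2 fold change of -0.50 (SE 0.53) became 0.26 without gilt C128. In BV it was 0.36 (SE 0.20) and in S -0.19 (SE 0.17).

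**Figure D2:**
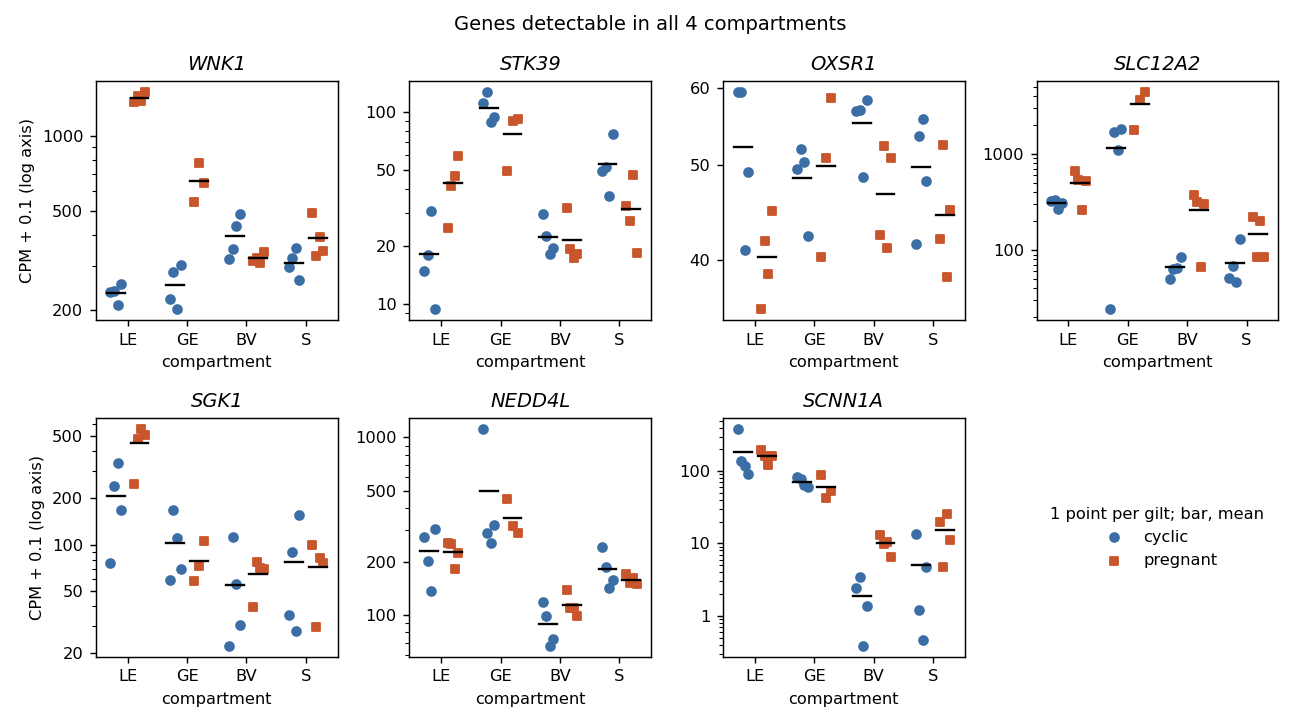
CPM + 0.1 on a log axis for the 7 genes detectable in LE, GE, BV and S, 1 point per gilt, bars at the means (n = 4, pregnant GE n = 3). WNK1 groups lie apart in LE and GE, SCNN1A groups lie apart in BV, and cyclic gilt C128 in GE is far from its group for SLC12A2 and NEDD4L.

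The ENaC subunits parted in LE. SCNN1A, the alpha subunit, was 387, 138, 119 and 91.9 CPM in cyclic gilts C128, C40, C42 and C78, and 197, 164, 120 and 164 CPM in pregnant gilts P139, P39, P41 and P43. The groups overlapped, and the log2 fold change of -0.16 (SE 0.42) became 0.48 without gilt C128. SCNN1B, which raises channel activity at the membrane, was 17.1, 68.8, 67.3 and 73.0 CPM in cyclic and 23.9, 12.4, 26.3 and 20.2 CPM in pregnant gilts. Cyclic gilt C128 lay among the pregnant libraries, and the other 3 cyclic libraries lay above all pregnant ones. The log2 fold change was -1.44 (SE 0.43), or -1.74 (SE 0.24) without gilt C128.

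SCNN1G, the gamma subunit, was 15.5, 26.9, 40.5 and 30.03 CPM in cyclic LE of gilts C128, C40, C42 and C78, and 3.60, 1.91, 8.28 and 2.24 CPM in pregnant LE of gilts P139, P39, P41 and P43. No pregnant library reached a cyclic one, and the means were 28.2 ± 10.3 and 4.01 ± 2.94 CPM (SD, n = 4 and 4), so that pregnant gilts were 7.04-fold lower, and the log2 fold change was -2.72 (SE 0.48). Per kilobase of exon, SCNN1A made up 49.7 to 61.5% of the summed level of the 3 subunits in cyclic gilts C40, C42 and C78, 93.1% in cyclic gilt C128 and 79.2 to 92.5% in the pregnant gilts. SCNN1G made up 3.08 to 15.6% in cyclic and 0.892 to 4.52% in pregnant gilts. The SCNN1A share of cyclic gilt C128 thus lay above that of every pregnant gilt, and the shares of the other 3 cyclic gilts lay below.

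In GE, SCNN1A was 60.6 to 81.9 CPM in cyclic and 42.7 to 87.6 CPM in pregnant gilts (log2 fold change -0.23, SE 0.25), while SCNN1B was at most 2.76 CPM and SCNN1G at most 1.70 CPM in any GE library. In BV, SCNN1A was 2.35, 3.30, 0.28 and 1.27 CPM in cyclic gilts C128, C40, C42 and C78, and 13.1, 9.85, 10.3 and 6.31 CPM in pregnant gilts P139, P39, P41 and P43. These groups did not overlap, at a level far below that of LE, with a log2 fold change of 2.43 (SE 0.53). In S, SCNN1A was 13.3, 1.12, 0.36 and 4.62 CPM in cyclic and 19.9, 4.56, 25.2 and 11.2 CPM in pregnant gilts, and the log2 fold change was 1.58 (SE 0.81).

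SCNN1A in BV and S moved with the epithelium markers. In BV the library lowest in both was cyclic gilt C42, with a marker sum of 3.69 CPM, and the library highest in both was pregnant gilt P139, with 357 CPM. In S the lowest in both was cyclic gilt C42, at 12.0 CPM, and the highest in both was pregnant gilt P41, at 513 CPM. With the marker sum as a covariate the log2 fold change of SCNN1A was -0.04 (SE 0.32) in BV and 0.75 (SE 0.40) in S. In BV the marker sum and pregnancy did not overlap and cannot be told apart.

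**Figure D3:**
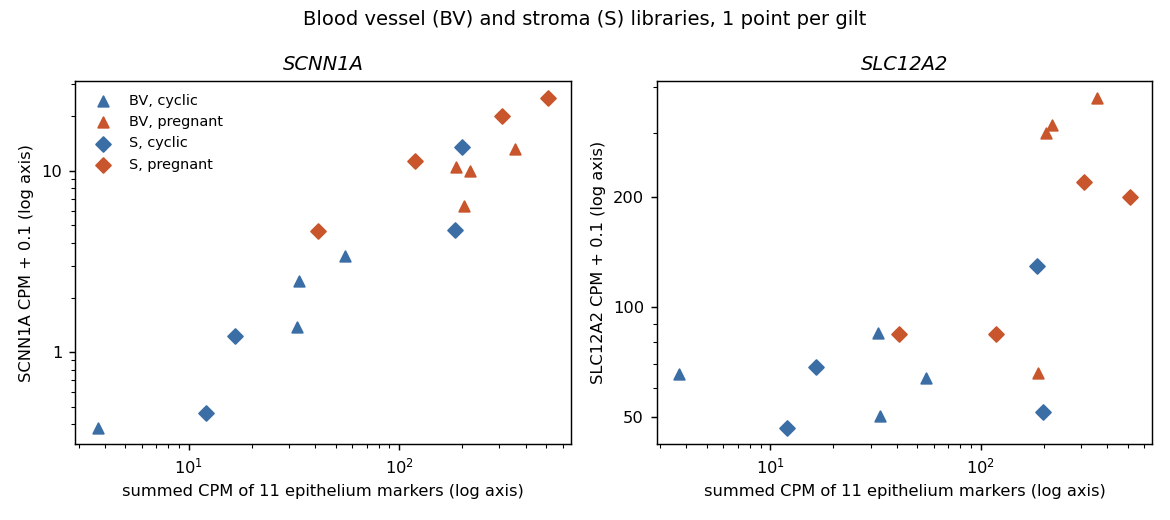
SCNN1A (left) and SLC12A2 (right) CPM + 0.1 against the summed CPM of 11 epithelium markers, both on log axes, in the 8 BV (triangles) and 8 S (diamonds) libraries, 1 point per gilt. Pregnant BV libraries have marker sums of 187 to 357 CPM and cyclic BV libraries 3.69 to 55.1 CPM, and SCNN1A is highest where the marker sum is high.

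FXYD4, a modulator of the sodium pump best known from the renal collecting duct, had the largest log2 fold change of the 10 genes. In cyclic LE it was 178, 29.7, 32.8 and 12.5 CPM in gilts C128, C40, C42 and C78, from 665, 136, 115 and 55 counts. In pregnant LE it was 0, 0.32, 1.0 and 0.64 CPM in gilts P139, P39, P41 and P43, from 0, 1, 7 and 2 counts. The groups did not overlap, and the pregnant mean of 0.49 ± 0.43 CPM was 129-fold below the cyclic mean of 63.2 ± 77.0 CPM (SD, n = 4 and 4). The log2 fold change was -6.72 (SE 1.07), or -5.42 (SE 0.60) without cyclic gilt C128. Outside LE it was at 0 counts in the 8 BV libraries, which allows up to 3 counts over a group and covers counting error only. It had 7 counts in all in cyclic GE and 0 in pregnant GE, and 27 counts in cyclic S, of which 20 were in gilt C128, and 1 in pregnant S.

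Counting calls, 3 of the 10 genes passed the threshold in LE (WNK1, SCNN1G and FXYD4), where 3.32% of all 12002 genes did. The threshold was a 1% false discovery rate (FDR) in LE with edgeR's quasi-likelihood test, and the matching unadjusted p of 3.28e-04 elsewhere. In GE 1 of 7 passed (WNK1) against 0.748% of all genes. In BV and S none of 7 passed by this test, against 1.86% and 0.293% of all genes. At an unadjusted p under 0.05 there were 2 genes in each, against 28.5% and 14.5% of all genes. The robust likelihood ratio test called 2 in each, where it called 1216 of all 11096 genes in BV and 377 of all 11935 in S. DESeq2 called 2 in BV and 0 in S, where it called 943 and 310 of all genes. Group ranges did not overlap for 3 of 10 genes in LE (19.4% over all genes) and for 1 of 7 in GE (22.9%). The same held for 1 of 7 in BV (18.2%) and for 0 of 7 in S (8.81%). Without gilt C40, C42, P139, P39 or P43, WNK1 was the 1 gene called in LE, and WNK1 in GE was not called without gilt C128, C40, C42, P39 or P43. Over all genes those runs called 101 to 138 of 12002 in LE and 38 to 110 of 11905 in GE. Since the genes were chosen on these contrasts, nothing is read from the counts.

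**Figure D4:**
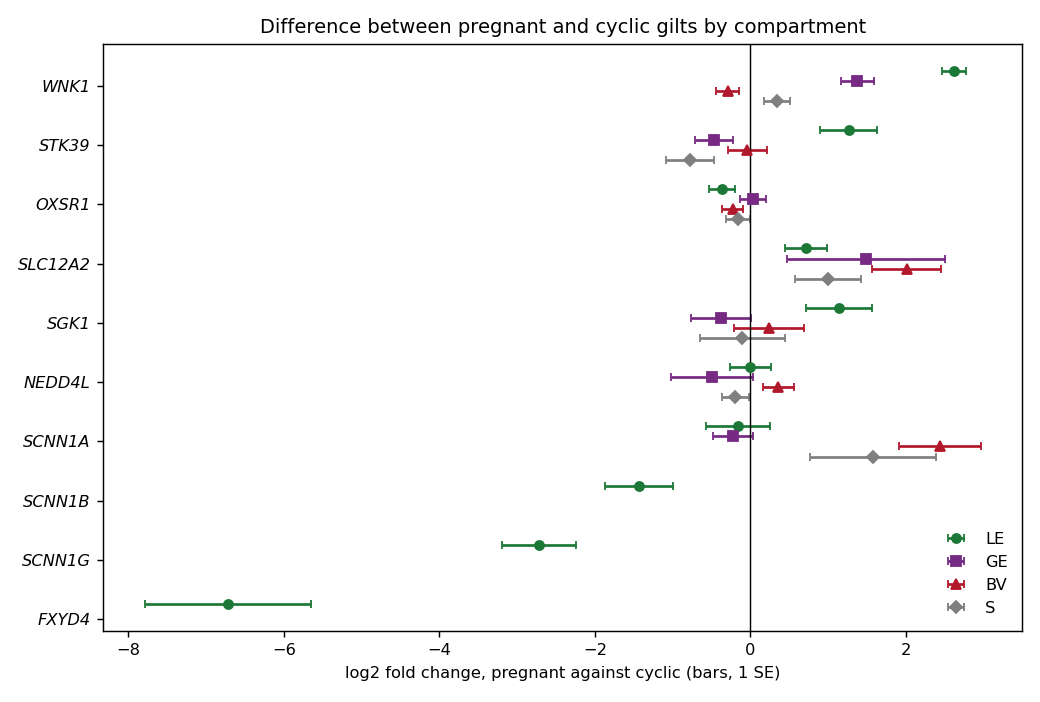
Log2 fold change of pregnant against cyclic gilts for each gene in the compartments where it was detectable, with bars of 1 SE. WNK1 is farthest to the right in LE (2.62), FXYD4 farthest to the left in LE (-6.72), and SCNN1A lies to the right in BV (2.43) and S (1.58) only.

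The difference of the effect between compartments, also part of the choice, was largest against its error for WNK1. Its log2 fold change was higher in LE than in GE by 1.22 (SE 0.24), than in BV by 2.90 (SE 0.23) and than in S by 2.28 (SE 0.23). Of the 7 genes 1 (WNK1) was past a 1% FDR in each of these contrasts, where 1.19%, 2.74% and 1.06% of all genes detectable in both compartments passed. Without the gilt as block the last share was 0.683%. Against GE the count went to 0 with each of the 8 gilts left out in turn (adjusted p = 0.0137 to 0.0477). Those runs called 32 to 131 of all 10922 genes detectable in both. Against S DESeq2 counted 2, WNK1 and STK39, where it called 2.74% of all genes detectable in both. Nothing is read from these counts. STK39 showed the same order of signs, with the LE effect above that in GE by 1.64 (SE 0.53), in BV by 1.26 (SE 0.52) and in S by 2.04 (SE 0.51). For SCNN1A the effect in LE minus that in BV was -2.46 (SE 0.74) on the log2 scale, and minus that in S -1.71 (SE 0.64). For SGK1 the LE effect exceeded that in GE by 1.46 (SE 0.65).

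Levels between compartments, averaged over cyclic and pregnant gilts, were tested in a joint edgeR quasi-likelihood fit with the gilt as a block and Benjamini-Hochberg adjustment over all genes. LE and GE differed for 6 of the 7 genes, against 37.4% of all genes detectable in both. SCNN1A was 2.38-fold higher in LE (adjusted p = 0.00165), SGK1 3.25-fold higher in LE (adjusted p = 2.13e-04) and WNK1 1.43-fold higher in LE (adjusted p = 0.00118). The WNK1 mean over both states includes its high pregnant LE level. In cyclic gilts alone WNK1 ranges overlapped, at 209 to 252 CPM in LE and 201 to 301 CPM in GE. The WNK1 level call is therefore not separate from its pregnancy effect. The SGK1 mean over both states likewise includes its higher pregnant LE levels. In cyclic gilts alone SGK1 ranges overlapped too, at 75.7 to 336 CPM in LE and 59.0 to 168 CPM in GE. GE held more SLC12A2 by 4.36-fold (adjusted p = 0.00129), more STK39 by 3.30-fold (adjusted p = 1.38e-05) and more NEDD4L by 1.68-fold (adjusted p = 9.04e-04). Mean STK39 in LE and GE was 18.1 and 105 CPM in cyclic gilts and 42.9 and 76.8 CPM in pregnant gilts. Without gilt C128 or P139 the WNK1 call was lost (adjusted p = 0.0150 and 0.0101), without gilt C40 or P43 the SLC12A2 call (0.0107 and 0.0104) and without gilt P43 the SCNN1A call (0.0125).

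Against BV, LE differed for 5 of 7 genes (48.9% of all genes) and GE for 4 of 7 (54.6%). SCNN1A was 39.5-fold higher in LE than in BV (adjusted p = 4.67e-10) and 16.6-fold higher in GE than in BV (adjusted p = 8.58e-09). SLC12A2 was 13.5-fold higher in GE than in BV (adjusted p = 2.14e-06), and SGK1 was 5.18-fold higher in LE than in BV (adjusted p = 2.17e-06). Against S, LE differed for 4 of 7 genes (49.6%) and GE for 4 of 7 (54.2%). SCNN1A was 20.6-fold higher in LE than in S (adjusted p = 2.26e-09), and SLC12A2 was 16.4-fold higher in GE than in S (adjusted p = 1.56e-06). The LE counts against BV and S include WNK1, whose mean over both states was 1.62-fold and 1.66-fold higher in LE. In cyclic gilts alone its order was the reverse, with every LE library below every BV and S library.

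BV and S differed for 1 of 7 genes (7.63% of all genes), NEDD4L, which was 1.69-fold higher in S (adjusted p = 0.00345). Without the gilt as block this call was lost, with an adjusted p = 0.0377, and it was also lost without gilt C42, P39, P41 or P43 (adjusted p = 0.0127 to 0.0185). OXSR1 passed in none of the 6 contrasts, and its adjusted p was between 0.170 and 0.736. The order of levels was thus LE, then GE, then BV and S without a call between them for SCNN1A, and GE, then LE, then BV and S without a call between them for SLC12A2. The SLC12A2 step from LE to BV was lost without gilt C40, C42, C78, P139, P39 or P43 (adjusted p = 0.0105 to 0.0153). For SGK1, LE came first in this mean over both states, and GE, BV and S did not differ past the threshold. Per kilobase of exon, SLC12A2 in GE was the highest of the 10 genes, at 169 ± 119 CPM per kb in cyclic (n = 4) and 480 ± 199 CPM per kb in pregnant gilts (SD, n = 3).

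Of 69 other genes of these pathways, listed in 7 groups, 66 were matched and 53 were detectable in LE, where 2 passed the test and both fell, against 3.32% of all genes. The median log2 fold change of the 53 was 0.27, against -0.01 over all genes. ATP1B1, the beta subunit of the sodium pump, went from 268 to 568 CPM in cyclic down to 68.4 to 137 CPM in pregnant gilts, a log2 fold change of -2.08 (SE 0.27, adjusted p = 0.00302). WNK3, a relative of WNK1, went from 15.4 to 28.6 CPM down to 6.68 to 9.57 CPM, a log2 fold change of -1.55 (SE 0.25, adjusted p = 0.00618). For both genes the LE groups did not overlap. The ATP1B1 call was lost without gilt C40, C42, P139 or P39 (adjusted p = 0.0110 to 0.0125), and the WNK3 call held only without gilt C42 or C78 (adjusted p up to 0.0234 in the other 6 runs).

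By group in LE, 1 of 10 detectable WNK kinases and partners fell (WNK3) and 1 of 6 sodium pump subunits and other FXYD proteins fell (ATP1B1). None of 3 other cation-chloride cotransporters, 12 SGK activators and ubiquitin enzymes, 6 steroid receptors and cortisol enzymes, 7 channel-activating proteases and their inhibitors, and 9 other sodium, chloride and water transporters passed. Over the 53 genes, 21 (39.6%) were at an unadjusted p under 0.05, against 26.9% of all genes. The lists were chosen with earlier results of these data known, so nothing is read from such shares in any compartment. The robust likelihood ratio test called 13 and DESeq2 called 9, where they called 1411 and 1342 of all 12002 genes. Among the genes reported here, the highest per kilobase of each group in cyclic LE was CAB39 (a scaffold of STK39 and OXSR1) at 37.0 ± 7.27 CPM per kb, SLC12A7 at 4.59 ± 1.27, WWP1 at 52.4 ± 33.3, ESR1 (the oestrogen receptor) at 22.1 ± 5.14, SPINT2 (a protease inhibitor) at 239 ± 34.2, ATP1B1 at 347 ± 101 and SLC9A3R1 at 20.9 ± 2.45 CPM per kb (SD, n = 4). Of these, only ATP1B1 passed in LE, and the adjusted p of the others was 0.0569 for SLC12A7, 0.0724 for ESR1 and 0.359 or more for CAB39, WWP1, SPINT2 and SLC9A3R1. CFTR, the chloride channel of secretory epithelia, named here after its values were seen, was 28.0 to 75.2 CPM in cyclic and 8.28 to 19.1 CPM in pregnant LE, with a log2 fold change of -1.78 (SE 0.37, adjusted p = 0.0175), and did not pass.

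In GE none of 46 detectable pathway genes passed the quasi-likelihood test, with 15 at an unadjusted p under 0.05 (32.6%, against 23.0% of all genes). The robust likelihood ratio test called 6 and DESeq2 called 5, where they called 793 and 791 of all 11905 genes. ATP1B1 had a log2 fold change of -1.67 (SE 0.30, adjusted p = 0.0451 by the quasi-likelihood test) in GE. In S none of 48 passed, with 12 at an unadjusted p under 0.05 (25.0%, against 14.5% of all genes). There the robust test called 5 and DESeq2 called 1, where they called 377 and 310 of all 11935 genes. In BV 4 of 46 rose, namely FURIN by a log2 fold change of 1.23 (SE 0.15, adjusted p = 0.0130), TMPRSS2 by 4.56 (SE 0.58, adjusted p = 0.0130), SPINT2 by 1.66 (SE 0.28, adjusted p = 0.0163) and SLC9A3R1 by 1.48 (SE 0.27, adjusted p = 0.0172), where 1.86% of all genes passed. The SPINT2 call held only without gilt C40 or C78 and the SLC9A3R1 call only without gilt P41, so that the 8 runs with a library left out gave 2 to 3 calls. Over all genes those 8 runs called 77 to 231 of 11096. FURIN and TMPRSS2 are proteases, and furin cleaves and activates ENaC. TMPRSS2 in BV was 0.67, 5.10, 0.57 and 5.10 CPM in cyclic gilts C128, C40, C42 and C78 and 89.2, 63.7, 32.9 and 76.8 CPM in pregnant gilts P139, P39, P41 and P43, against 203 to 812 CPM in LE. With the epithelium marker sum as a covariate 0 of these 4 passed, and over all genes 206 calls in BV became 1. The marker sums of the BV groups did not overlap, so this fit cannot separate them from pregnancy, and nothing is read from the lost calls.

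**Figure D5:**
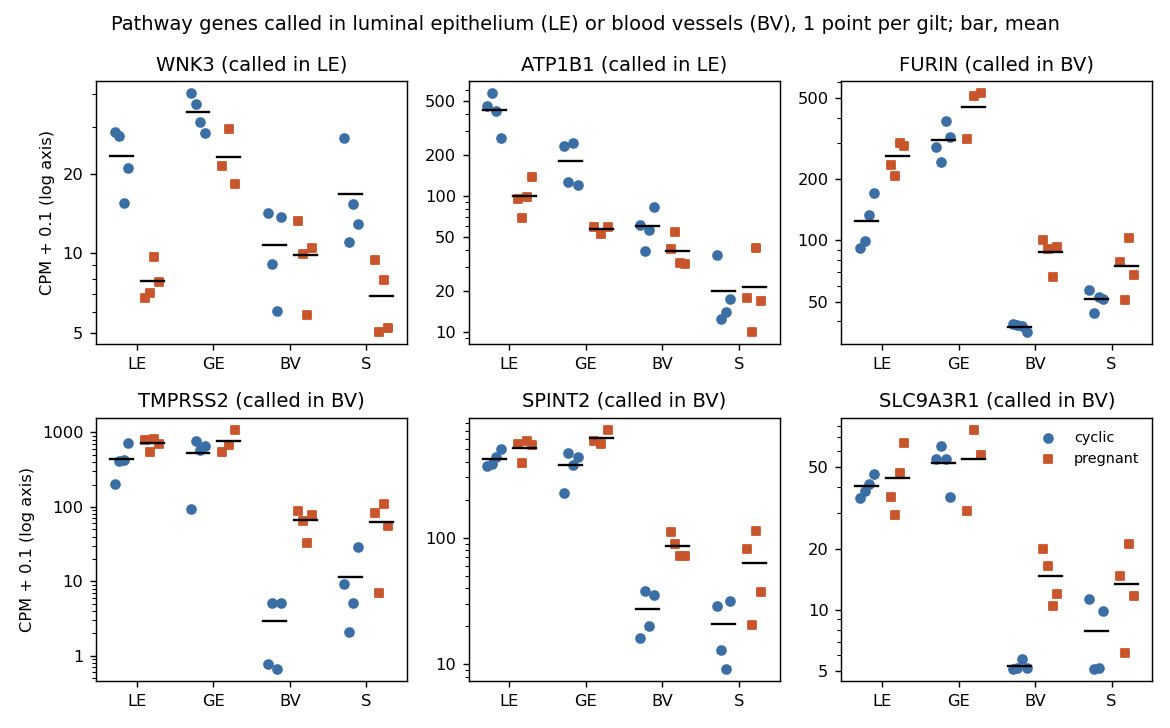
CPM + 0.1 on log axes of the 2 pathway genes that passed the test in LE and the 4 that passed in BV, as each panel names, in each compartment, 1 point per gilt with bars at the means. WNK3 and ATP1B1 are lower in pregnant LE, and the 4 genes called in BV have higher means in LE and GE than in BV.

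In the joint edgeR fit no pathway gene reported here had a pregnancy effect in LE that differed past a 1% FDR from that in GE (46 genes), BV (42) or S (44). In the same order, 10, 18 and 8 of them had an unadjusted p under 0.05, where 2288, 3151 and 2246 of all 13887 genes in the fit did. These 13887, unlike the pathway genes counted, include genes not detectable in both compartments. DESeq2 called 0, 4 and 1, against 3.56%, 6.50% and 2.74% of all genes detectable in both compartments. Nothing is read from these counts.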

How the data were processed

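RNA of microdissected LE, GE, BV and S was sequenced as single reads. The authors used Trim Galore for trimming, Hisat2 for alignment to Sscrofa11.1, nudup for PCR duplicates and QuasR for counting by NCBI gene, and the tool versions are not given in the sources used here. The deposited values are raw counts, in a full table and a table the authors filtered on a CPM minimum that is not stated. A detectable gene is in the filtered table. Complete endometrium was not analysed here.

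The filtered counts were tested per compartment with edgeR 4.0.16 (R 4.3.3, TMM, quasi-likelihood test, Benjamini-Hochberg adjustment). A joint fit over 31 libraries, with the gilt as block because compartments come from the same animal, gave level and effect differences. Printed CPM used joint TMM factors, and levels per kilobase used merged exon lengths. DESeq2 1.42.0 and edgeR's robust likelihood ratio test were alternatives. The paper made its own calls with edgeR's robust fit. The quasi-likelihood test in LE and the joint test of the effect in LE against GE were run on simulated data beforehand. DESeq2, the robust test, the covariate fit and the level contrasts were not checked in this way. No pair of replicate libraries was alike within sampling noise (lowest chi-square per degree of freedom 5.998).

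The members, gene lists and tests were chosen with earlier results of these data known. Text names all members, pathway genes called in a compartment or in an effect difference, and the highest gene per kilobase of each list in cyclic LE. Results of 3 further pathway genes are not reported here and are in no list or count of pathway genes, while the fits and the counts over all genes include them. The list of 69 pathway genes lost TSC22D4, SGK3 and FXYD1, whose symbols did not match, and the 39 cell type markers all matched. Promoter windows were read from Sscrofa11.1 (RefSeq).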

Additional observations from a re-analysis of the deposited data

Results flagged for a closer look

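In 7 of 97 groups of 4 libraries a single library stood farther from the others than Dixon's 95% limit for 4 samples allows, and chance gives about 1 in 20 such groups. The library of cyclic gilt C128 was concerned 4 times. In LE it was high for SCNN1A at 387 CPM, where the next library was 138 CPM, and for FXYD4 at 178 CPM, where the next was 32.8 CPM. It was low for SCNN1B at 17.1 CPM, where the next was 67.3 CPM. In GE it was high for NEDD4L at 1121 CPM, where the next was 323 CPM. These are the compartments in which the same gilt had the largest mean distance to the other cyclic libraries.

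The other 3 were in BV. STK39 was 31.7 CPM in pregnant gilt P139, where the next library was 19.3 CPM. OXSR1 was 48.5 CPM in cyclic gilt C42, where the next was 56.8 CPM. SLC9A3R1 was 5.68 CPM in cyclic gilt C42, where the others lay between 5.04 and 5.10 CPM.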

How the results depend on the processing

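No called value changed sign under the alternatives run. The robust likelihood ratio test called 5 members in LE, 2 in BV and 2 in S, and 13, 6, 6 and 5 pathway genes in LE, GE, BV and S. Over all genes the robust test called 1411 of 12002, 793 of 11905, 1216 of 11096 and 377 of 11935 there. DESeq2 called 2 members in BV, and 9, 5, 6 and 1 pathway genes in LE, GE, BV and S. Over all genes it called 1342, 791, 943 and 310 there. It called 2 members between BV and S levels, where 10.7% of all genes detectable in both passed. For the effect in LE it called 2 members against S, and 4 and 1 pathway genes against BV and S. The shares of all genes detectable in both were 6.50% against BV and 2.74% against S. A 5% FDR within the compartment gave 2 members in BV and 10, 2 and 6 pathway genes in LE, GE and BV. Over all genes it gave 1288, 221 and 958 in LE, GE and BV. Without the low-count filter 1 member in BV and 2 pathway genes in GE were called, where 278 of all 21411 and 131 of all 21090 genes were. With the epithelium covariate 0 pathway genes were called in BV. There the covariate did not overlap between the groups, so the fit cannot separate it from pregnancy. The cause of these shifts was not tested.

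With gilts numbered across compartments the number is the animal. Without the block the BV and S level call went from 1 to 0 members, the calls over all genes in the difference of effect between LE and S went from 116 to 75, and no other count of members or pathway genes moved by more than 1.5 times.

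Leaving out a library in turn gave 1 to 4 members and 0 to 3 pathway genes in LE, 0 to 1 members and 0 to 1 pathway genes in GE, 0 to 1 members and 2 to 3 pathway genes in BV and 0 to 1 pathway genes in S. Over all genes these runs called 101 to 439 of 12002 in LE and 38 to 110 of 11905 in GE. In BV they called 77 to 231 of 11096, and in S 12 to 52 of 11935. WNK1 in LE was called in all 8 runs (log2 fold change 2.56 to 2.68), and without gilts C40, C42, P139, P39 or P43 it was the 1 member left. SCNN1G (-3.39 to -2.51) was also lost without gilt C78 and FXYD4 (-7.53 to -5.42) also without gilt P41. WNK1 in GE (1.24 to 1.502) was lost without gilts C128, C40, C42, P39 or P43. FURIN and TMPRSS2 in BV were called in all 8 runs, ATP1B1 in LE in 4, WNK3 in LE and SPINT2 in BV in 2, and SLC9A3R1 in BV in 1. Leaving out a gilt gave 0 to 1 members between BV and S levels, and 0 to 1 pathway genes whose effect differed between LE and BV. Of all genes detectable in both, 485 to 879 of 10845 were called for the levels and 113 to 270 of 10413 for the effect. The p limit of a call moved in the 8 LE runs (8.37e-05 to 3.64e-04) and was 3.28e-04 in the others. The effect of WNK1 in LE against GE was past a 1% FDR in none of the 8 runs without a gilt.

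With counts of 0 to 7 in pregnant LE, FXYD4 has no precise fold change.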
